A study of Gallus gallus with 6 samples.

Results

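The 7 genes described here are WT1, OSR2, BNC1, TCF21, CRB2, MSLN and UPK1B, a set of genes used as markers of mesothelium, among 17108 genes measured by RNA-seq in 2 regions of the embryonic chick gut. They were chosen by name from the difference between those regions in the same 6 libraries that are described below. Their levels and fold changes between the regions are therefore a description with no test, and nothing is supported with them. All 7 were found by symbol, and all 7 were among the 10678 genes with at least 1 RPKM (reads scaled to gene length and to library size) in at least 3 of the 6 libraries. MSLN and UPK1B passed that filter through the interceca libraries alone.

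The libraries came from Gallus gallus embryos at embryonic day 5, Hamburger-Hamilton stage 26. The ceca, the paired blind sacs that bud from the gut, gave 3 libraries, and the region labelled interceca gave 3. The labels name no strain, genotype, treatment or pooling for either tissue, and no label states a separate embryo behind each library, so p-values measure the spread between these samples only, which may be technical. The series concerns the part of the ceca in the development of the hindgut enteric nervous system, and the comparison asks which transcripts differ between the ceca and the interceca.

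Mesothelium is the simple epithelium that covers the organs of the body cavity. In the gut it arises from splanchnic mesoderm, forms the outer serosal layer, and in mouse and chick embryos it releases cells that enter the underlying mesenchyme. WT1 is a zinc finger transcription factor of mesothelium, epicardium, kidney and gonad. OSR2 is a zinc finger factor of the odd-skipped family, BNC1 (basonuclin 1) is a zinc finger protein of squamous epithelia and mesothelium, and TCF21 is a basic helix-loop-helix factor of epicardium and visceral mesenchyme. CRB2 is a transmembrane protein of the Crumbs apical polarity complex. MSLN (mesothelin) is a membrane-anchored glycoprotein of mature mesothelium, and UPK1B is a tetraspanin of urothelium that mouse mesothelium also expresses.

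The 7 genes did not behave as one group. The 4 transcription factors and CRB2 had higher levels in the ceca, with OSR2 and WT1 furthest apart between the tissues, whereas the surface proteins MSLN and UPK1B had higher levels in the interceca and were close to 0 in the ceca. In 5 of the 7 genes all 3 ceca libraries lay above all 3 interceca libraries, which was so for 23.0% of all genes tested, and in the other 2 all interceca libraries lay above all ceca libraries, which was so for 21.1%. The genes were chosen on this contrast, so these counts only describe the choice. The genes are named one by one below and not taken as a measure of the amount of mesothelium, which was not tested. In dissected tissue, fewer cells of a type and less RNA per cell cannot be told apart.

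**Figure D1:**
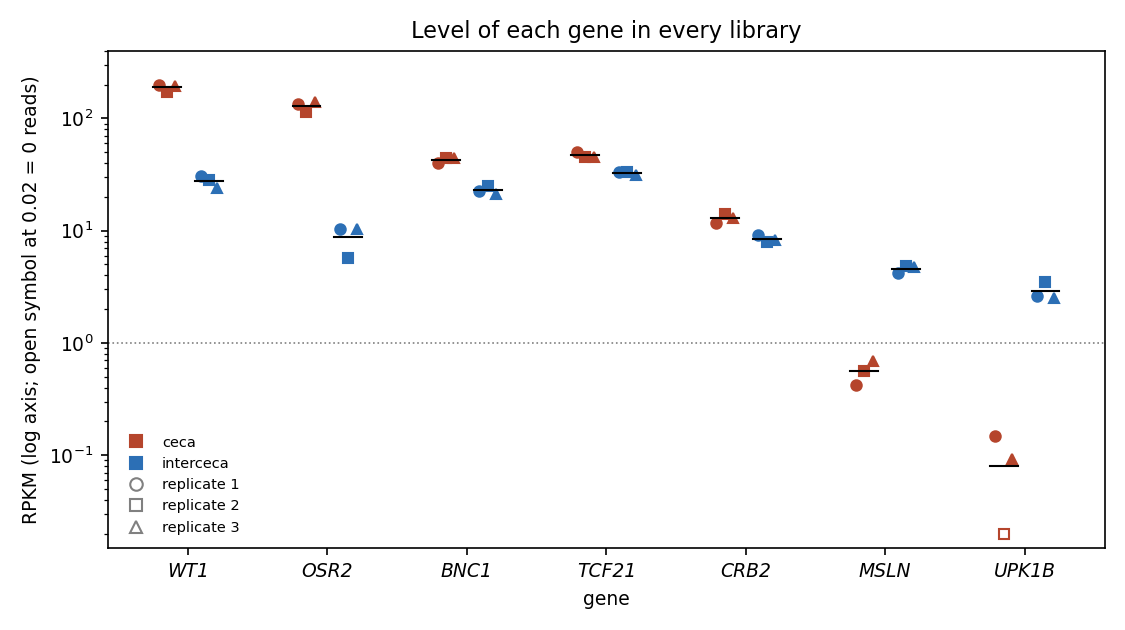
RPKM on a log axis of each of the 7 genes in every library, with ceca in red, interceca in blue, 1 symbol per replicate and a black bar at the mean of 3 libraries; the dotted line marks 1 RPKM. WT1 and OSR2 show the widest gaps toward ceca, and MSLN and UPK1B lie below 1 RPKM in every ceca library, with UPK1B at 0 reads in ceca replicate 2 (open symbol).

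WT1 stood at 199, 173 and 194 RPKM in ceca replicates 1 to 3 and at 30.9, 28.4 and 24.1 RPKM in interceca replicates 1 to 3. The ranges were far apart, the lowest ceca library lying 5.59 times above the highest interceca library. The means were 188 ± 13.9 RPKM in ceca and 27.8 ± 3.45 in interceca (SD, n = 3 each), a ratio of 6.77. On the log2(RPKM + 0.5) scale used for all fold changes here, ceca over interceca, the difference was 2.74 ± 0.09 (SE), rank 8 of 10678 from the ceca end. These values rest on 14661 to 15519 reads in the ceca libraries and 1796 to 2100 in the interceca libraries. By level WT1 was rank 340 among the genes tested in ceca and rank 3371 in interceca.

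On this scale, with its pseudocount of 0.5, OSR2 had the highest log2 fold change of all genes tested, 3.85 ± 0.20 (SE). It was at 136, 115 and 139.5 RPKM in ceca replicates 1 to 3 and at 10.3, 5.72 and 10.3 RPKM in interceca replicates 1 to 3. Interceca replicate 2 was the low library, at 411 reads against 582 and 853, and without it the log2 fold change was 3.59. The means were 129.9 ± 13.4 RPKM in ceca and 8.78 ± 2.65 in interceca (SD, n = 3 each), a ratio of 14.8. By the ratio of means OSR2 was not the highest. MDGA1, at lower levels, had a ratio of 16.5 (11.9 RPKM in ceca over 0.722 in interceca). With the pseudocount its log2 fold change was 3.34. The rank of OSR2 by level went from 7228 in interceca to 523 in ceca, a wider gap in rank than that of WT1. The paralogue OSR1, named here after its values were seen, averaged 9.52 ± 1.60 RPKM over the ceca and 8.49 ± 2.53 over the interceca libraries, with a log2 fold change of 0.18 ± 0.21 (limma, adjusted p = 0.559).

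BNC1 differed less between the tissues. It was at 40.0, 44.5 and 44.0 RPKM in ceca replicates 1 to 3 and at 22.5, 24.99 and 21.1 RPKM in interceca replicates 1 to 3. The 2 ranges did not overlap, the lowest ceca library being 1.60 times the highest interceca library. The means of 42.8 ± 2.47 and 22.9 ± 1.99 RPKM (SD, n = 3 each) gave a ratio of 1.87 and a log2 fold change of 0.89 ± 0.07 (SE), rank 287 from the ceca end.

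TCF21 was at 50.2, 45.4 and 45.7 RPKM in ceca replicates 1 to 3 and at 33.3, 33.3 and 31.5 RPKM in interceca replicates 1 to 3. It varied least among the 7 genes within the interceca, with a coefficient of variation of 3.20%. The ratio of the means, 47.1 ± 2.72 over 32.7 ± 1.05 RPKM (SD, n = 3 each), was 1.44, the smallest of the 5 genes higher in ceca. The log2 fold change was 0.52 ± 0.06 (SE), rank 660 from the ceca end.

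CRB2, the polarity gene, was the lowest of the 5 genes toward ceca. It was at 11.8, 14.0 and 13.1 RPKM in ceca replicates 1 to 3 and at 9.15, 8.005 and 8.28 RPKM in interceca replicates 1 to 3. The lowest ceca library lay 1.28 times above the highest interceca library, the narrowest gap of the 7 genes. The means were 12.9 ± 1.12 and 8.48 ± 0.595 RPKM (SD, n = 3 each), with a log2 fold change of 0.58 ± 0.09 (SE).

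MSLN was at 0.422, 0.568 and 0.693 RPKM in ceca replicates 1 to 3, from 22, 33 and 38 reads. In interceca replicates 1 to 3 it was at 4.18, 4.85 and 4.79 RPKM, from 166, 245 and 278 reads. All interceca libraries lay above all ceca libraries, and the summed reads per recovered read were 8.23 times higher in interceca, given as a description. With the pseudocount of 0.5, which understates the change of so low a gene, the log2 fold change was -2.27 ± 0.15 (SE). In the authors' deposited table it is -3.03.

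UPK1B was lower still. It was at 0.147, 0 and 0.0933 RPKM in ceca replicates 1 to 3, which are 3, 0 and 2 reads, and at 2.64, 3.49 and 2.51 RPKM in interceca replicates 1 to 3, which are 41, 69 and 57 reads. The 0 in ceca replicate 2 allows a share of up to 1.32e-05% of that library's reads. Summed over the libraries, 5 reads in ceca stood against 167 in interceca, and per recovered read this was 37.1 times higher in interceca. With so few ceca reads this ratio is imprecise, and it is given as a description. With the pseudocount the log2 fold change was -2.54 ± 0.20 (SE), and in the authors' deposited table it is -5.11.

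**Figure D2:**
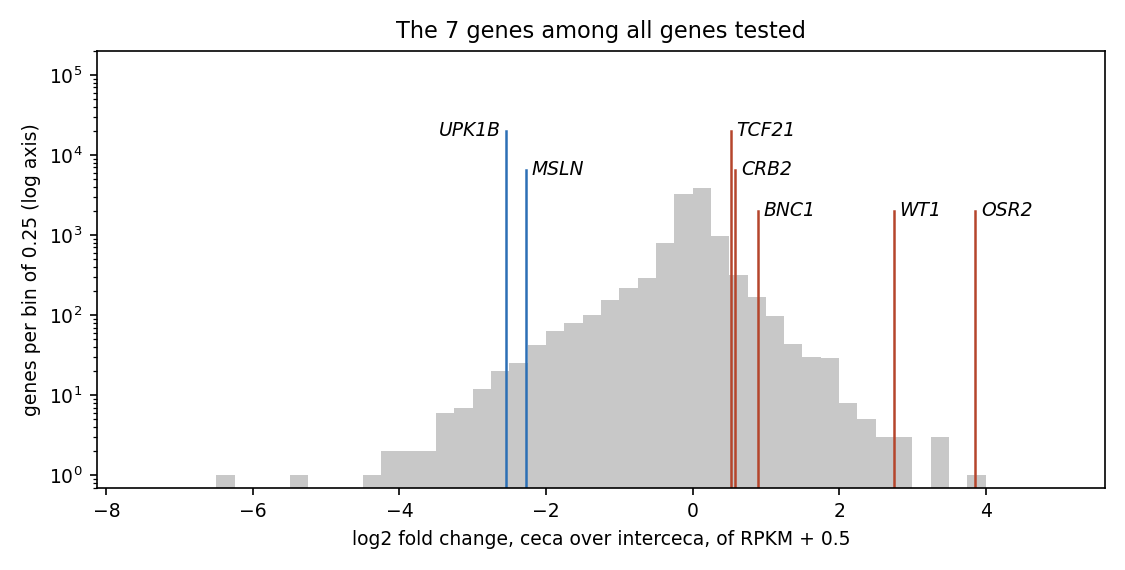
Number of genes per bin of 0.25 in log2 fold change (ceca over interceca, RPKM + 0.5, log axis for the number of genes) over the 10678 genes tested, with a line at each of the 7 genes whose height has no meaning. OSR2 at 3.85 is the gene furthest toward ceca on this scale, and MSLN at -2.27 and UPK1B at -2.54 lie in the tail toward interceca.

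RPKM is per length, so the levels of different genes can be set in order within a tissue. Such an order rests on the authors' gene lengths, and the annotation behind them is not given. In ceca the order from high to low was WT1, OSR2, TCF21, BNC1, CRB2, MSLN and UPK1B, and no 2 neighbours overlapped over the 3 libraries. In interceca the order was TCF21, WT1, BNC1, OSR2, CRB2, MSLN and UPK1B. There the ranges of WT1 and BNC1 overlapped over the libraries, although WT1 was above BNC1 within each of the 3. The ranges of OSR2 and CRB2 also overlapped, and CRB2 was above OSR2 in interceca replicate 2 alone.

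The proportions of the genes to WT1 therefore differed between the tissues. OSR2 RPKM amounted to 68.9% ± 2.86 of WT1 RPKM in ceca and 32.1% ± 11.4 in interceca (SD over 3 libraries). TCF21 RPKM was 25.04% ± 1.36 of WT1 RPKM in ceca and 119% ± 11.5 in interceca. BNC1 RPKM was 22.9% ± 2.84 of WT1 RPKM in ceca and 82.7% ± 8.49 in interceca. CRB2 RPKM was 6.92% ± 1.10 of WT1 RPKM in ceca and 30.7% ± 3.26 in interceca, and MSLN RPKM was 0.300% ± 0.0773 in ceca and 16.8% ± 3.19 in interceca. OSR2 was the sole one of these genes with a higher proportion to WT1 in every ceca library than in every interceca library.

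**Figure D3:**
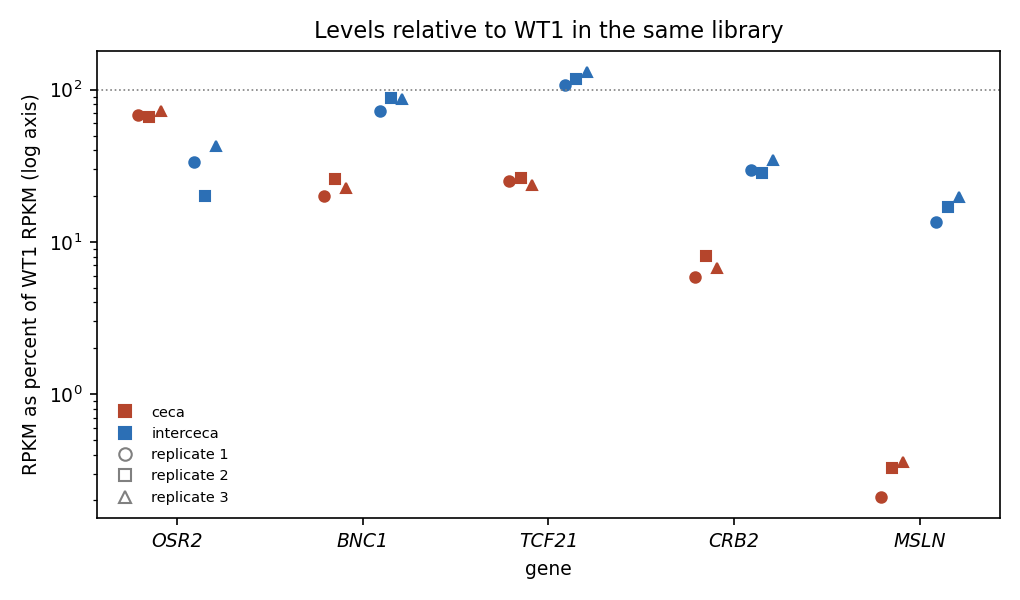
RPKM of OSR2, BNC1, TCF21, CRB2 and MSLN as a percent of WT1 RPKM in the same library, on a log axis, with ceca in red, interceca in blue and 1 symbol per replicate; the dotted line marks equality with WT1. TCF21 lies above WT1 in all 3 interceca libraries and at 23.6% to 26.3% of it in the ceca libraries.

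Within a tissue the 7 genes did not share an order of the libraries. WT1, OSR2 and UPK1B were lowest in ceca replicate 2, BNC1, CRB2 and MSLN were lowest in ceca replicate 1, and TCF21 was lowest in ceca replicate 2. In the interceca WT1, BNC1, TCF21 and UPK1B were lowest in replicate 3, OSR2 and CRB2 in replicate 2 and MSLN in replicate 1. The deviations from a tissue's mean stayed within 0.27 on the log2 scale for every gene and library except OSR2 in interceca replicate 2, at -0.53. The pseudocount of 0.5 narrows them for MSLN and UPK1B in ceca, where the coefficients of variation of RPKM were 24.2% and 92.9%.

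Genes whose levels over the 6 libraries were most like those of the 4 transcription factors were taken by the distance between log2 profiles centred on their own means. This measure follows mainly the difference between the tissues, on which the 4 were chosen. Nearest to WT1 were GFRA4, a receptor of the GDNF family (distance 0.39), CYP26A1, an enzyme that degrades retinoic acid (0.44), and RSPO3, a secreted enhancer of Wnt signalling (0.53). The mean of RSPO3 was 47.6 ± 4.95 RPKM for ceca and 8.43 ± 2.31 for interceca (SD, n = 3 each). Nearest to OSR2 was PKIB, an inhibitor of protein kinase A (0.55), at 35.6 ± 3.35 and 2.84 ± 0.768 RPKM, which like OSR2 was lowest in replicate 2 of both tissues. MDGA1 (0.92) and GFRA4 (1.36) followed at greater distances. MDGA1 reached 1 RPKM in the ceca libraries alone, where it is high, and averaged 0.722 RPKM in interceca. WT1 itself lay at a distance of 1.55 from OSR2. BNC1 had GPRIN3, B3GAT1 and AKAP13 nearest, and TCF21 had HOXB4, MLLT1 and PAN3, at distances of 0.05 to 0.09.

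Other mesothelial markers were taken from a list of 32 genes that holds none of the 7. Of these 24 were found and 16 were tested. Past the threshold (limma, adjusted p under 0.05 over all genes tested) 5 of 16 were higher in ceca, against 13.5% of all genes tested, 3 were higher in interceca, against 14.1%, and 8 did not pass. The median log2 fold change of the 16 was 0.08, beside 0.01 over all genes tested. The 5 made up 31.25% and the 3 made up 18.75% of the genes tested in the list, the second near the 14.1% of all genes tested.

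In the rest of the text a value after ± is the SD of 3 libraries beside an RPKM mean and the SE beside a log2 fold change, and pairs of RPKM means give ceca first. Those higher in ceca included ALDH1A2, the retinoic acid synthesis enzyme of embryonic mesothelium, at 53.0, 95.2 and 86.3 RPKM in ceca replicates 1 to 3 and 18.1, 25.7 and 31.9 RPKM in interceca replicates 1 to 3. Its tissues did not overlap, and its log2 fold change was 1.61 ± 0.25 (limma, adjusted p = 0.00234). LRRN4, a leucine-rich repeat membrane protein used as a mesothelial marker in mouse, was at 31.3 ± 6.18 against 16.0 ± 3.12 RPKM (log2 fold change 0.94 ± 0.18). PODXL, an apical sialomucin reported as a WT1 target, was at 55.4 ± 9.76 against 30.2 ± 4.42 RPKM (0.86 ± 0.15). CDH2, N-cadherin, was at 240.1 ± 6.89 against 129.6 ± 9.59 RPKM (0.89 ± 0.06), and GPM6A, a membrane glycoprotein, had a log2 fold change of 0.58 ± 0.07.

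Those higher in interceca were GATA6, THBD and SEMA3D. GATA6, a zinc finger factor of mesothelium and also of gut endoderm and smooth muscle, was at 2.56, 5.57 and 5.49 RPKM in ceca replicates 1 to 3 and at 32.3, 33.5 and 38.8 RPKM in interceca replicates 1 to 3. Its log2 fold change was -2.87 ± 0.25 (limma, adjusted p = 0.000112). THBD, thrombomodulin (-0.86 ± 0.10), and SEMA3D, a secreted semaphorin (-0.68 ± 0.12), moved less.

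Of the markers that did not pass, TM4SF1, RSPO1 and PDPN had log2 fold changes of 0.36 ± 0.17, 0.31 ± 0.12 and 0.26 ± 0.15, and HAS2, SBSPON, NKAIN4, EFEMP1 and KRT19 had -0.10 ± 0.11, -0.31 ± 0.18, -0.34 ± 0.12, -0.40 ± 0.18 and -0.63 ± 0.22. With the replicate number as a block, 4 of these passed: KRT19, a keratin of simple epithelia, at an adjusted p of 0.000565, EFEMP1 at 0.00663, NKAIN4 at 0.0119 and RSPO1 at 0.0497, which gave 6 higher in each tissue. The fit with the block also called more genes in both directions over all genes tested. KRT19 and EFEMP1 also passed without interceca replicate 1 (adjusted p of 0.0373 and 0.0339), and NKAIN4 and RSPO1 without ceca replicate 1 (0.0148 and 0.0436). KRT19 passed as well with limma-voom on recovered reads (adjusted p of 0.0406) and RSPO1 with quantile normalization (adjusted p of 0.0477).

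Several defining mesothelial genes were too low to test. MUC16, the binding partner of MSLN, was at a mean of 0.0116 RPKM in ceca and at 0 in interceca. CALB2, calretinin, was at a mean of 0.0473 RPKM in ceca and 0.00888 in interceca, and the epicardial factors TBX18 and GATA4 averaged 0.0414 and 0.0583 RPKM in ceca and 0.0474 and 0.172 in interceca. UPK3B averaged 0.580 ± 0.106 against 0.601 ± 0.117 RPKM, and CFI 0.174 ± 0.0441 against 0.599 ± 0.189 RPKM. KRT8 and KRT18 were listed at 0 in all 6 libraries, as were the globin genes HBAA and HBAD, so a 0 in these files may be a failed estimate.

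**Figure D4:**
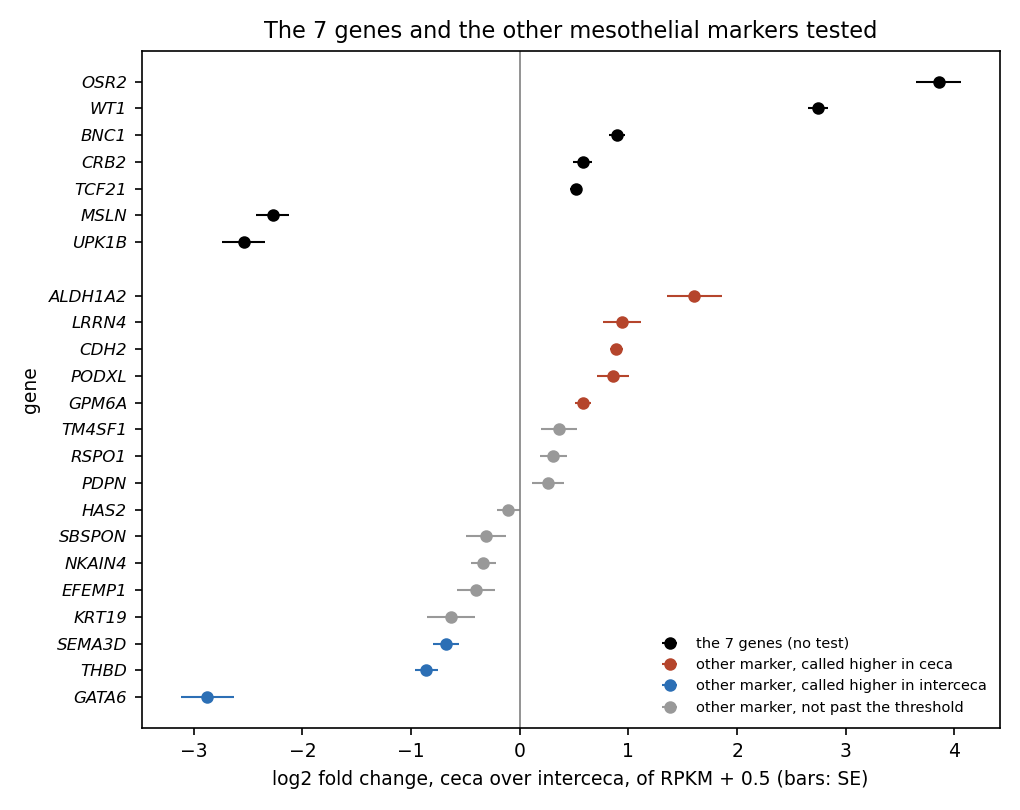
Log2 fold change (ceca over interceca, RPKM + 0.5) with its SE for the 7 genes (black, no test) and for the 16 other mesothelial markers tested, in red where called higher in ceca, blue where called higher in interceca and grey where not past the threshold of 0.05. The values shown run from 3.85 for OSR2 to -2.87 for GATA6.

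Many of the other mesothelial markers shared a low library. Of the 16 tested, 9 were lowest in replicate 1 of both tissues, which was so for 21.2% of all genes tested. ALDH1A2, LRRN4, PODXL, KRT19 and GATA6 were among them, and of the 7 genes MSLN alone. The summed RPKM of the gut epithelial markers was also lowest in replicate 1 of both tissues, at 121 in ceca and 521 in interceca. Its part in this pattern was not tested, and the pattern was noticed after the values were seen.

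Genes around each member were compared between the tissues from lists of known roles. The shares over all genes tested, 13.5% higher in ceca and 14.1% higher in interceca, belong beside every count of calls of the main fit below. Counts from other fits have other shares. Over all genes, calls were more numerous with the replicate block and fewer when a library was left out, with the counts given at the end. Across all lists 12 genes stand in more than 1 list, so the counts are not separate observations. Of 14 reported WT1 target genes tested, 7 were higher in ceca, 5 were higher in interceca and 2 did not pass, with a median log2 fold change of 0.23. The count higher in interceca was 3 on omission of interceca replicate 1 or 2 and under a filter of 5 RPKM. AREG and Sulf1, described below, were not tested in these fits, which left 12 genes. For ceca, the count of 7 fell to 5 on omission of ceca replicate 2, ceca replicate 3 or interceca replicate 1. With the replicate number as a block, 8 genes passed toward ceca and 6 toward interceca. The apoptosis inhibitor BCL2 (0.76 ± 0.09) and the growth factor IGF2 (0.52 ± 0.08) were higher in ceca, beside ALDH1A2 and PODXL. CDH1, E-cadherin (-2.04 ± 0.20), the EGF receptor ligand AREG (-1.38 ± 0.18), the heparan sulphate sulphatase Sulf1 (-0.97 ± 0.17) and the integrin subunit ITGA4 (-0.65 ± 0.11) were higher in interceca. AREG and Sulf1 reached 1 RPKM in the interceca libraries alone, so they entered the test through the tissue where they are high, and of the other 12 genes 3 were higher in interceca. The adjusted p of Sulf1 was 0.0598 with quantile normalization.

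Of 8 proteins reported to bind or modify WT1, 3 were higher in ceca, 3 were higher in interceca and 2 did not pass, with a median of -0.02. The coactivator CITED2 was at 26.5 ± 2.39 RPKM in ceca against 16.0 ± 1.84 (0.71 ± 0.10). The repressor PAWR was at 10.4 ± 1.36 against 31.8 ± 4.45 RPKM (-1.56 ± 0.12), and the LIM protein FHL2 (-0.93 ± 0.11) and the corepressor BASP1 (-0.26 ± 0.05) were higher in interceca as well. CREBBP (0.31 ± 0.08) and WTAP (0.18 ± 0.05) were called higher in ceca with adjusted p = 0.0257 and 0.0262 in limma. CREBBP was not called without ceca replicate 1, ceca replicate 2 or interceca replicate 3, with adjusted p of 0.0747, 0.0779 and 0.0599. When each library was omitted in turn, WTAP passed for interceca replicate 1 alone, the other 5 fits giving an adjusted p between 0.0647 and 0.0966.

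Among partners and relatives of TCF21, 2 of 7 tested were higher in ceca and 5 did not pass, with a median of 0.17. With the replicate number as a block 5 were higher. ID2, an inhibitor of basic helix-loop-helix factors, was at 543 ± 24.2 against 449 ± 27.9 RPKM (0.28 ± 0.06), and the E protein TCF4 had a log2 fold change of 0.75 ± 0.19. ID2 had an adjusted p of 0.0552 on omission of ceca replicate 3 and of 0.0506 on omission of interceca replicate 2, and TCF4 one of 0.0642 and 0.0594 on omission of interceca replicates 1 and 2. TCF4 reached 1 RPKM in the ceca libraries alone, where it is high, and of the other 6 genes 1 was higher in ceca. TCF4 was not tested on omission of any ceca library, so that no gene of the list was called higher on omission of ceca replicate 3.

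Of 17 Crumbs and Par polarity genes tested, 6 were higher in ceca, 2 were higher in interceca and 9 did not pass, with a median of 0.12. The 2 made up 11.8% of the genes tested in the list, near the 14.1% of all genes tested. AMOT, a scaffold that binds the Crumbs complex (0.84 ± 0.07), EPB41L5, a FERM protein that binds Crumbs (0.59 ± 0.06), PARD3 (0.44 ± 0.05) and LIN7B (0.31 ± 0.06) were higher in ceca. The count of 6 was 4 on omission of ceca replicate 3, 7 on omission of ceca replicate 1 and 5 on omission of any other library. It was also 5 with no filter, with a filter of 5 RPKM and with limma-voom on recovered reads. LLGL2, a basolateral polarity protein (-0.27 ± 0.07), and PARD3B (-0.28 ± 0.08) were higher in interceca. LLGL2 was not called without ceca replicate 2 or 3 or interceca replicate 1 or 2, with adjusted p of 0.0531 to 0.0602. PARD3B was not called without any ceca library, interceca replicate 1 or interceca replicate 2, with adjusted p of 0.0662 to 0.0897, nor with no filter (0.0502). The paralogue CRB1, named after its values were seen, was at a mean of 0.154 RPKM in ceca and 0.136 in interceca and was not tested. Beside UPK1B, UPK3A and UPK3B were the uroplakin genes found, and both were too low to test.

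Of 19 genes of the transition from mesothelium to mesenchyme tested, 3 were higher in ceca, 6 were higher in interceca and 10 did not pass, with a median of -0.03. The 3 made up 15.8% of the genes tested in the list, near the 13.5% of all genes tested. With the replicate number as a block 6 were higher in ceca and 8 in interceca. CDH2 and SNAI1 were higher in ceca, the second at 15.9 ± 1.22 against 10.9 ± 1.88 RPKM (0.54 ± 0.12, and an adjusted p of 0.0519 without ceca replicate 3). The TGF-beta receptor listed as ChALK5 (TGFBR1) was higher by 0.17 ± 0.05, a call that held for the omission of ceca replicate 1 but not of any other library (adjusted p between 0.0696 and 0.117). CDH1, ITGA4, the TGF-beta co-receptor TGFBR3 (-0.48 ± 0.06) and periostin, listed as OSF-2 (-0.60 ± 0.12), were higher in interceca. CDH1 is also among the gut epithelial markers, of which 10 of 12 tested were higher in interceca.

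Of 17 transcription factors of splanchnic mesoderm tested, 7 were higher in ceca, 2 were higher in interceca and 8 did not pass, with a median of 0.18. The 2 made up 11.8% of the genes tested in the list, near the 14.1% of all genes tested. ZFPM2, a cofactor of GATA factors, was at 20.8, 20.2 and 20.9 RPKM in ceca replicates 1 to 3 and at 3.07, 2.76 and 3.58 in interceca replicates 1 to 3, with a log2 fold change of 2.55 ± 0.10 (limma, adjusted p = 3.52e-06). TWIST2, listed as cdermo-1 (1.80 ± 0.10), NR2F2 (1.11 ± 0.12) and HAND1 (0.40 ± 0.06) were higher as well. GATA5 had a log2 fold change of -1.44 ± 0.14. ISL1 (-0.66 ± 0.18, limma, adjusted p = 0.0304) passed on omission of interceca replicate 2 but not of the other libraries (adjusted p between 0.0515 and 0.103), with no filter (0.053) or with quantile normalization (0.0553). FOXF1, a marker of gut mesenchyme named after its values were seen, averaged 326 ± 15.9 against 321 ± 7.78 RPKM.

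Markers of other cell types were compared between the tissues as well. Because WT1, OSR2 and TCF21 are also genes of the nephric and gonadal region, 17 markers of that region were listed, and 14 were found. Their summed RPKM was 13.6 to 14.4 in the ceca libraries and 26.4 to 40.7 in the interceca libraries. Without Six2, left out after its values were seen, the sums overlapped, at 7.69 to 8.85 and 6.83 to 8.69 RPKM. Defining genes were near 0, with PAX2 at means of 0.0312 and 0.104 RPKM, NR5A1 at 0.0138 and 0.0293, and LHX9 at 0.00988 and 0. Of the 4 tested, 1 was higher in ceca, DAZL (0.66 ± 0.18, adjusted p of 0.06 to 0.0938 without an interceca library), which reached 1 RPKM in the ceca libraries alone, 1 was higher in interceca, Six2 (-2.19 ± 0.20), and 2 did not pass. LHX1, a nephric factor below the filter, was at a mean of 1.05 RPKM in ceca and 0.214 in interceca.

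Gut epithelial markers had 10 of 12 tested higher in interceca and 1 higher in ceca, CDX2. On omission of replicate 2 or 3 of either tissue CDX2 had a limma adjusted p of 0.0555 to 0.0648. The summed RPKM of the gut epithelial markers was 121 to 175 in ceca and 521 to 774 in interceca. ESRP1 among the epithelial markers, TTR among the liver markers and S100B among the neural markers passed the filter through the interceca libraries alone, where they are high. Without these genes, 9 of 11 epithelial, 3 of 3 liver and 5 of 10 neural markers tested were higher in interceca. Smooth muscle markers had 9 of 11 tested higher in interceca and sums of 579 to 623 RPKM in ceca and 999.6 to 1024 in interceca. All 4 liver markers tested were higher in interceca, with sums of 15.8 to 21.05 and 239 to 281 RPKM, as were 6 of 11 enteric neural crest and neuron markers, with sums of 763 to 858 and 917 to 969 RPKM. That count of 6 neural markers was 6, 9 and 2 on omission of ceca replicates 1, 2 and 3, and 9 with the replicate block. On omission of interceca replicates 1, 2 and 3 it was 2, 3 and 1 of the 10 then tested. It was 8 with limma-voom on recovered reads, 5 with no filter or quantile normalization, and 2 of 4 tested under a filter of 5 RPKM. Endothelial markers had 2 of 11 tested (18.2%) higher in ceca, against 13.5% of all genes tested, and sums of 172 to 186 and 145 to 182 RPKM. These 2, CDH5 and FLT1, both lost the call on omission of replicate 1 or 3 of either tissue, and CDH5 also with no filter, median-of-ratios scaling or quantile normalization. Blood and leukocyte markers had 1 of 8 tested (12.5%) higher in ceca, LCP1 (1.67 ± 0.25), against 13.5% of all genes tested. That count was 2 with the block and 3 on omission of interceca replicate 1, and the sums were 451 to 505 and 347 to 443 RPKM. The 1 limb and body wall marker tested, PITX1, was higher in ceca, with sums of 41.7 to 52.5 and 27.2 to 28.8 RPKM. The part of any of these cell types in the levels of the 7 genes was not tested.

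**Figure D5:**
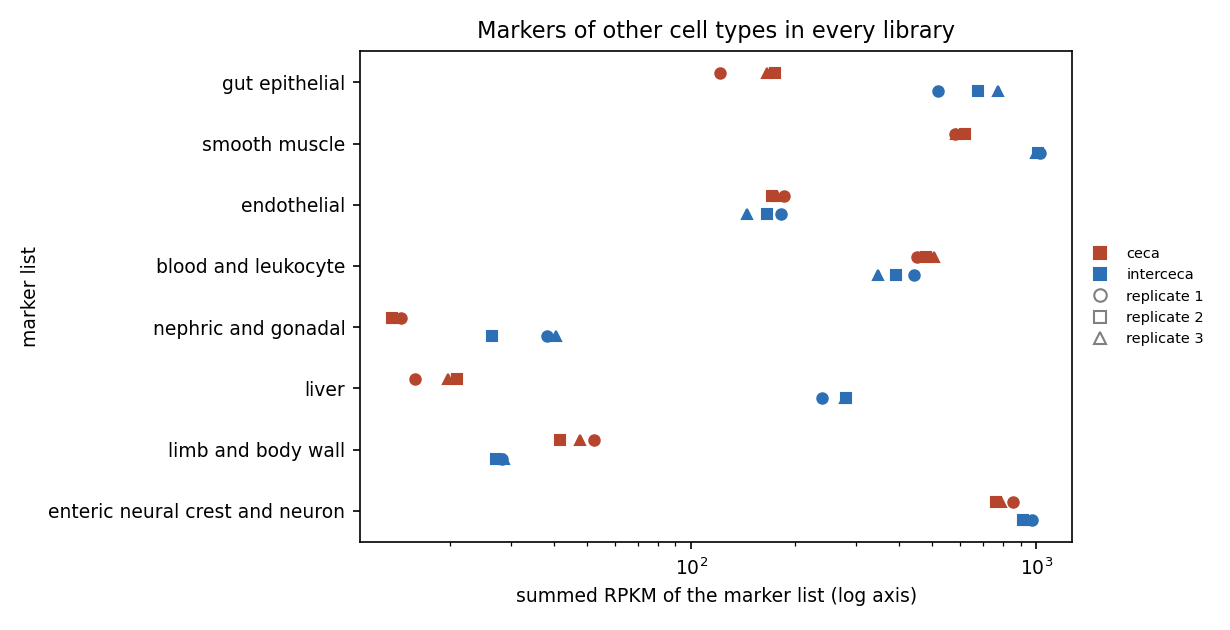
Summed RPKM (log axis) of 8 marker lists in every library, with ceca in red, interceca in blue and 1 symbol per replicate. Gut epithelial, smooth muscle and liver sums are lower in all ceca libraries than in all interceca libraries, as are the nephric and gonadal sums, which overlap without Six2, and the endothelial sums of the tissues overlap.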

How the data were processed

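The RPKM values are the authors' own, 1 deposited file per library and a deposited table of the whole series whose 6 RPKM columns equal those files. The submitters' processing notes name galGal4 and the tools STAR, HTSeq, edgeR and bcl2fastq, in no stated order. Not given in the sources used here were the annotation, versions and strandedness, so an overlapping or antisense gene is uncertain beside its partner. Per the file headers the table also holds the authors' log2 fold changes, raw and adjusted p-values, and a −log10 form of the latter. The table has 1 row with no gene name, which was left out.

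Whole reads were recovered from the RPKM steps for 100.0% of the 14080 genes above 0, within 0.01 read, giving 15741991 to 22802209 reads in each. A count of 0 allows up to 3 reads, 1.32e-05% to 1.91e-05% of a library. That bound covers counting error only.

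The tissues were compared by limma 3.58.1 (R 4.3.3) over every gene reaching 1 RPKM in 3 or more libraries, on the log2(RPKM + 0.5) scale (two-sided, with a mean trend, a term for tissue alone, 4 residual degrees of freedom), with Benjamini-Hochberg adjustment over the 10678 genes tested and a threshold of 0.05. The steps were tested on simulated data with known changes. The simulated libraries were drawn independently, with the same excess spread for every gene and no pairing. That test therefore does not cover the pattern described next. Same-numbered libraries of the 2 tissues deviated together from the tissue means (correlations across genes of 0.364, 0.227 and 0.213). Differently numbered libraries had correlations of -0.238 to 0.0314. The shared numbers may therefore mark pairs, but the labels do not state this. The main fit leaves such pairing out of every SE and adjusted p. The fit with the replicate number as a block is the alternative that holds it.

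The 7 genes and 16 gene lists (204 genes found, 10 by an older symbol in the GRCg7b table, from which no coordinates were used) were chosen with earlier results of these data known. Named were the 7 genes, every other mesothelial marker measured, up to 4 genes per list and direction with the smallest p among lists of genes around the 7 (fewer in lists of other cell types), and 3 genes most like each of WT1, OSR2, BNC1 and TCF21. Likeness is the Euclidean distance of centred log2 profiles over the 6 libraries. No sequence or genome was used here.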

Additional observations from a re-analysis of the deposited data

How the results depend on the processing

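The limma fit called 1439 genes higher in ceca and 1502 higher in interceca, and 900 to 1286 and 999 to 1316 when a library was left out, the lowest on omission of ceca replicate 3 and of interceca replicate 2. With the replicate block the counts were 1879 and 1888. Of the other mesothelial markers, 5 were called higher in ceca, and 5 to 6 under every alternative tried. The count called higher in interceca was 3, 6 with the replicate block, and 3 to 5 when a library was left out, the highest being without interceca replicate 1. The 7 genes kept their direction in all 90 alternative values. They were chosen on this contrast and the tissues did not overlap in any of them, so this was close to fixed in advance. Under a filter of 5 RPKM MSLN and UPK1B were not tested, nor when an interceca library was left out. MSLN had log2 fold changes of -2.85, -1.85, -2.003 and -3.05 with pseudocounts of 0.1 and 1, quantile normalization and limma-voom on recovered reads, and UPK1B had -4.13 and -1.84 with these pseudocounts and -5.26 with limma-voom. The other 5 genes stayed within 1 SD between replicates. Depth limits UPK1B in ceca, with 5 reads in all.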
